A study of Mus musculus with 2 samples.

Results

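The mitochondrial carriers of the solute carrier 25 (Slc25) family were described in kidney messenger RNA of mice with acute kidney injury (AKI). Members were all genes whose symbol was Slc25a followed by a number, and no measured value was used to choose them. The table listed 43 such genes among 19829. RefSeq annotates 47 members in the mouse, and *Slc25a18*, *Slc25a31*, *Slc25a41* and *Slc25a54* were not analysed here. The table held only genes with at least 1 read in both libraries.

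There were 2 libraries, 1 per genotype, each from kidney tissue. The library WT+AKI is that of wild-type (WT) kidneys. The library TG+AKI is that of transgenic (TG) kidneys whose proximal tubules overexpress *Inmt*, the gene of indolethylamine N-methyltransferase. Whether a library holds 1 animal or a pool was not given in the sources used here. They correspond to male C57BL/6 mice of the study that had received voclosporin, a calcineurin inhibitor, and then underwent ischemia–reperfusion (I/R) of both kidneys for 30 min at 14 weeks of age. Voclosporin was injected intraperitoneally every day for 2 weeks at 30 mg/kg, beginning at 8 weeks of age, and elsewhere the account of the study has it last until the ischemia. The treatment field of both samples says that none was given, whereas the design text of the series names voclosporin. Kidneys were collected 48 h after injury per the methods and 24 h after it per a figure legend. The title of the transgenic sample also speaks of a conditional knockout, and the promoter that drives the transgene was not given in the sources used here. *Inmt* went from 10.4 (443 reads) in the wild type to 403 (13339 reads) in the transgenic library, so the library labelled TG+AKI was the one with the higher level.

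With 1 library per group, no difference between the genotypes could be tested and no spread between animals could be measured. The table gives normalized values, on which 1 read was worth 0.0236 (WT+AKI) or 0.0302 (TG+AKI), and the libraries held 38542764 and 36427421 reads. Where a gene is said to go from a value to another, the first is that of WT+AKI and the second that of TG+AKI. Ratios are TG+AKI over WT+AKI with a 95% Clopper-Pearson interval from the reads. The interval covers counting error and not the spread between animals, because each group had 1 library. The reads carry no molecular identifiers, so copies of a molecule could not be told apart and the interval may be too narrow. A gene was compared if its value was at least 1 in either library, and was called when its ratio was at least 2 or at most 0.5.

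Slc25 proteins are encoded in the nucleus, and most of them sit in the inner mitochondrial membrane, where each exchanges or imports a small set of metabolites, nucleotides, cofactors or ions. They share a fold built from repeated membrane-spanning units that opens in turn to either side of the membrane. The proximal tubule is among the tissues richest in mitochondria, since it pays for the reabsorption of salt, glucose and amino acids with oxidative phosphorylation. ATP leaves the matrix through the adenine nucleotide translocases, phosphate enters through Slc25a3, and reducing power, fatty acyl groups and nitrogen pass through other members.

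The 43 carriers took 165055 reads of the WT+AKI library (0.428%) and 156512 of the other (0.430%), and on the deposited scale their summed value went from 3893 to 4726. Of the 42 members compared, 2 were called higher in TG+AKI, *Slc25a21* and *Slc25a48*, beside 7.35% of all genes compared. Another 2 were called lower, *Slc25a24* and *Slc25a25*, beside 11.0% of all genes compared. These 4 members take 9.52% of the 42, and 18.3% of the 14997 genes compared were called in either direction. The median ratio of the members was 1.21 (log2 0.28), with quartiles of 0.881 and 1.48, and that of all genes compared was 0.988. The ratio was above 1 in 28 members and below 1 in 14, whereas it was above 1 in 48.7% of all genes compared. The counting interval lay wholly above 1 in 25 members (36.3% of all genes) and wholly below it in 8 (38.7% of all genes). It excluded 1 in 33 members, beside 75.0% of all genes, and the exact binomial test on reads, which compares the 2 libraries and not the genotypes, gave an adjusted p under 0.05 for 33 members and 73.7% of all genes. At 1.5-fold, 10 members were higher, beside 15.7% of all genes, and 5 were lower, beside 19.5%. *Slc25a2*, an ornithine carrier, had 5 and 4 reads and was not compared.

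The majority of members above 1 depended on the scaling. It stayed at 28 of the 42 under DESeq2 size factors and under a median ratio of 1, but not under equal column totals. When both columns were set to the same total, all log2 ratios shifted by −0.27, and the median of the members became 0.0047 on the log2 scale. Above 1 were then 21 of the 42 members, beside 29.7% of all genes compared. *Slc25a10*, *Slc25a27*, *Slc25a28*, *Slc25a40*, *Slc25a44*, *Slc25a45* and *Slc25a46*, all above 1 as deposited, were then below it. *Slc25a48* was no longer called, *Slc25a22* was called lower, and *Slc25a21*, *Slc25a24* and *Slc25a25* were called in the same direction as before. The distance between the median of the members and that of all genes, 0.30 on the log2 scale, is one that no rescaling can change.

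**Figure D1:**
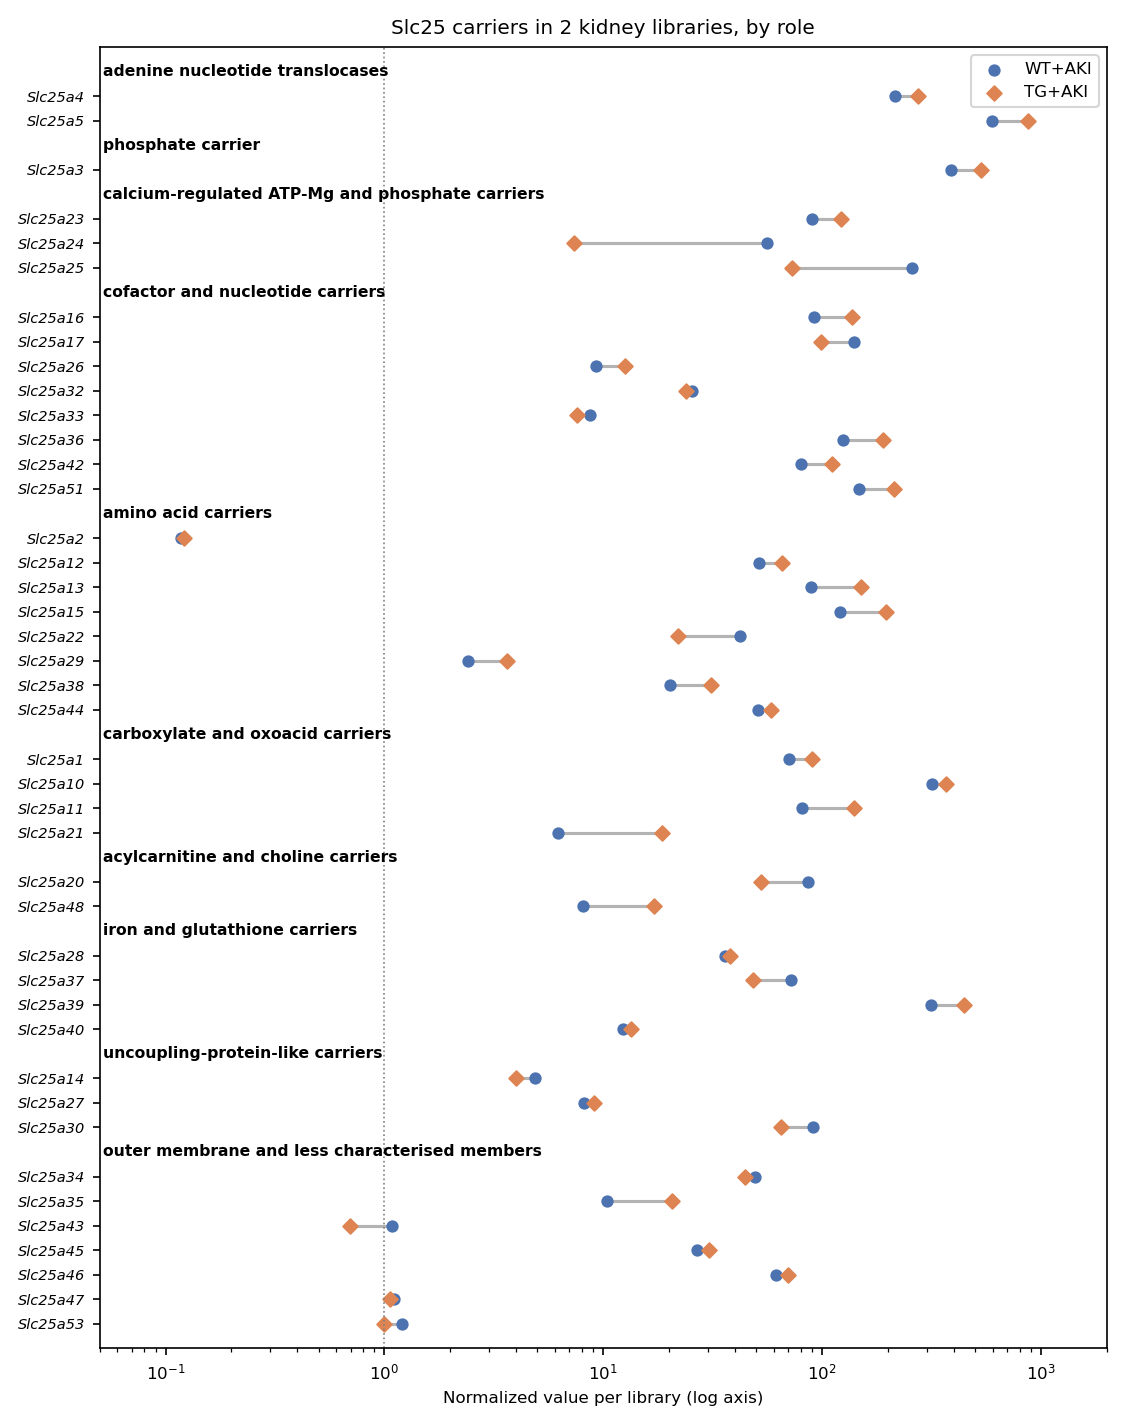
Normalized value of 42 of the 43 listed Slc25 members in WT+AKI (circles) and TG+AKI (diamonds) on a log axis, 1 library each, grouped by what the carriers move; grey lines join the values of a gene and the dotted line marks the filter of 1. Most lines are short, and the longest runs from 55.6 to 7.37 for *Slc25a24*.

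Short stretches of promoter are printed because a called member, *Slc25a25*, held a searched motif, so that it can be set beside uncalled members with such a motif. RefSeq start windows (GRCm38.p6, 250 bases before to 50 after a start) were found for 33 of the members, 43 windows in all. Both strands were searched for the cAMP response element TGACGTCA, the AP-1 site TGANTCA, the NRF-1 site (matched by the 10 letters shown in capitals for *Slc25a3*, with any base as the fifth), the ERR site TCAAGGTCA and the HNF4 site CAAAGTCCA. The cAMP response element was in 2 member windows, those of *Slc25a25* and *Slc25a36*, and in 1.79% of the 32851 windows of all genes. It stood 150 bases before 1 of the 3 starts of *Slc25a25*, at chr2:32424198-32424227 on the minus strand, in an intron of longer transcripts. It stood 161 bases before the start of *Slc25a36*, at chr9:97111184-97111213 on the minus strand, outside the annotated gene. The NRF-1 site, named for a regulator of nuclear genes for mitochondrial proteins, was in 1 member window, 135 bases before the outermost start of *Slc25a3* and 214 before the start of that window, at chr10:91124162-91124191 on the minus strand, and in 4.60% of all windows. In the lines that follow, each 5′ to 3′ on the gene's strand, capitals mark the motif.
*Slc25a25*: tctgcaagcagTGACGTCAgtcctgatctt
*Slc25a36*: tgcgaacctcgTGACGTCAcgcggcctaag
*Slc25a3*: ctttggatctGCGCCTGCGCagtaggaatc
The same 8 letters thus precede an inner start of a carrier with a ratio of 0.281 and the start of a carrier with a ratio of 1.52. Which start of *Slc25a25* was used in these kidneys was not tested. The AP-1 letters were in the windows of *Slc25a11* and *Slc25a13* and in 7.81% of all windows, and the ERR and HNF4 letters were in no member window. No match to any of the 5 motifs was found for *Slc25a24*, *Slc25a21* or *Slc25a48*, and only 33 of the members had a window to search.

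The calcium-regulated ATP-Mg carriers held the largest differences of the family. These proteins exchange ATP-Mg for phosphate, carry EF-hand domains on the outer side of the inner membrane, and adjust the adenine nucleotide pool of the matrix when cytosolic calcium rises. *Slc25a24* (RefSeq GRCm38, the mm10 build of the submitters' processing notes, chr3:109123149-109168409, plus strand) went from 55.6 (2359 reads) to 7.37 (244 reads). It was 7.55-fold lower in TG+AKI, with an interval of 6.62 to 8.65. *Slc25a25* (chr2:32414487-32451470, minus strand) went from 258 (10928 reads) to 72.4 (2399 reads). It was 3.56-fold lower, with an interval of 3.40 to 3.72. *Slc25a24* overlaps no annotated gene. *Slc25a25* overlaps *Naif1* on the other strand, and since the strand setting of the counting is not known, reads of genes that overlap in this way may have been shared. Both intervals lie far from 1, and the next lowest ratio of the family was 0.521 (*Slc25a22*). *Slc25a23*, the third carrier of this kind with a row (chr17:57043711-57059909, minus strand), went from 90.0 (3814 reads) to 121 (4023 reads), a ratio of 1.35 with an interval of 1.29 to 1.41.

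The makeup of this group therefore differed between the libraries. Per kilobase of the longest transcript, *Slc25a25* held 61.1% of the summed level of the 3 carriers in the wild type and 33.1% in the transgenic library. *Slc25a24* held 14.7% and 3.75%, and *Slc25a23* held 24.2% and 63.1%. With the median length of coding transcripts *Slc25a23* led in both libraries, at 50.4% and 84.0%, while *Slc25a25* held 42.7% and 14.8% and *Slc25a24* 6.96% and 1.14%. That lead rests on a median of 766 bases for *Slc25a23*, whose longest transcript has 3362. Whether the short coding transcripts are complete was not checked. Per kilobase of the longest transcript the ratio of *Slc25a23* to *Slc25a24* was 1.65 in the wild type and 16.8 in the transgenic library, a 10.2-fold quotient with an interval of 8.86 to 11.8. With the other length the ratios were 7.24 and 73.9. The quotient of a pair depends neither on that length nor on how the libraries were scaled. *Slc25a24* and *Slc25a25* were also unequal to each other, as their ratio per kilobase was 0.240 in the wild type and 0.113 in the transgenic library, a quotient of 0.471 with an interval of 0.408 to 0.542. With the median length of coding transcripts those ratios were 0.163 and 0.077.

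Markers of kidney and immune cells also differed between the libraries. All 12 proximal tubule markers were called higher in TG+AKI, beside 7.35% of all genes compared, and their summed value went from 3970 to 16486. For macrophages, 6 of 8 markers were called lower, beside 11.0% of all genes compared, and the summed value of the 8 went from 176 to 79.1. *Csf1r* and *Mrc1* went the other way, with ratios of 1.15 and 1.60 and intervals above 1. *Csf1r* made 43.0 of the 79.1 in TG+AKI. The injury genes *Lcn2* and *Havcr1* went from 249.8 to 1.87 and from 1169 to 2.78. In whole kidney, fewer cells of a type and less RNA per cell cannot be told apart. The part of these markers in the values of the carriers was not tested.

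Levels of different carriers were compared per length. Per kilobase of the longest transcript, *Slc25a5* held 28.5% of the summed level of the family in the wild type and 33.0% in the transgenic library. It was followed in both libraries by *Slc25a39* (11.1% and 12.4%), *Slc25a10* (9.28% and 8.48%), *Slc25a4* (6.67% and 6.68%) and *Slc25a3* (5.69% and 6.13%). These 5 carriers made up 61.3% of the family in the wild type and 66.7% in the transgenic library. Below them the order differed: *Slc25a25* was 7th in the wild type and 18th in the transgenic library, and *Slc25a24* was 20th and 37th. The order rests on the transcript length used. The median length of coding transcripts is far below the longest for *Slc25a39* (734 and 1685 bases), *Slc25a11* (770 and 1711) and *Slc25a51* (1005 and 4438). With the median length of coding transcripts, *Slc25a5*, *Slc25a39* and *Slc25a3* led in both libraries, and *Slc25a4* was 7th and 8th. The 5 leading carriers were then completed by *Slc25a10* and *Slc25a51* in the wild type (56.1% of the family) and by *Slc25a51* and *Slc25a11* in the transgenic library (61.8%).

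**Figure D2:**
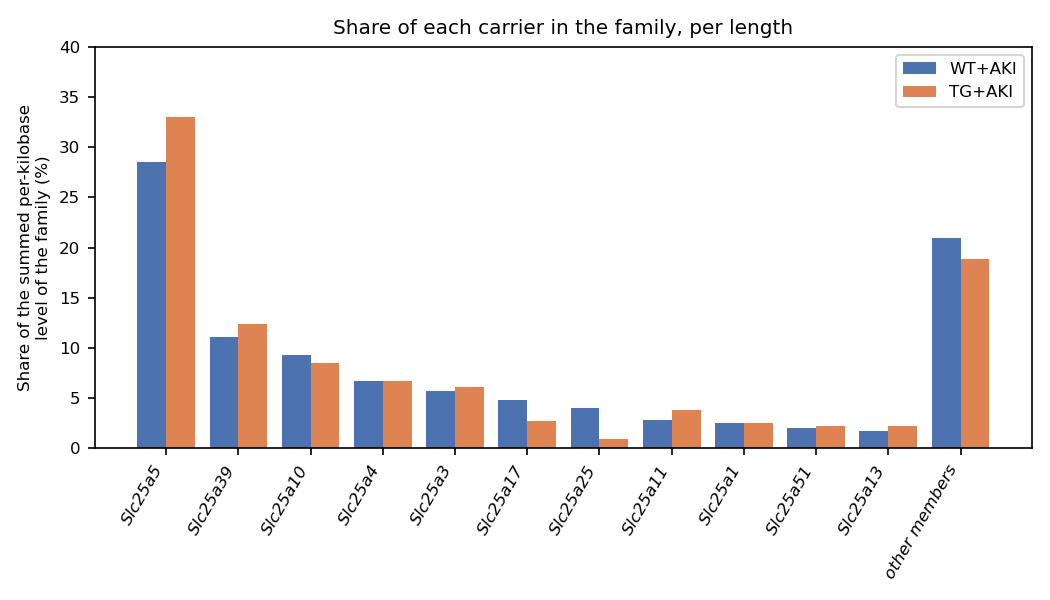
Share of each carrier in the summed per-kilobase level of the family (percent, longest transcript), with bars for WT+AKI and TG+AKI, for the members among the 10 highest in either library and the sum of the others. *Slc25a5* stands highest in both libraries, at 28.5% and 33.0%, and *Slc25a25* has the low bar in TG+AKI.

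Both adenine nucleotide translocases, which export ATP in exchange for ADP, had higher values in TG+AKI. *Slc25a5*, the form found in most tissues, went from 595 (25218 reads) to 874 (28953 reads), a ratio of 1.47 with an interval of 1.45 to 1.49. *Slc25a4*, the form of heart and skeletal muscle, went from 216 to 275, a ratio of 1.27 with an interval of 1.24 to 1.31. Per kilobase, the ratio of *Slc25a4* to *Slc25a5* was 0.234 in the wild type and 0.202 in the transgenic library, a quotient of 0.865 with an interval of 0.837 to 0.895. *Slc25a5* is uncertain to a degree, because 12.0% of the 100-base words of its transcript also occur in other genes. *Slc25a3*, which brings in phosphate for ATP synthase, went from 387 (16398 reads) to 529 (17508 reads), a ratio of 1.37 with an interval of 1.34 to 1.40. The ratios of all 3 carriers thus lay between 1.27 and 1.47, and none was called. Under equal column totals they were also above 1, with log2 ratios of 0.072 for *Slc25a4*, 0.18 for *Slc25a3* and 0.28 for *Slc25a5*.

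All 4 carriers of carboxylates and oxoacids had ratios above 1, except *Slc25a10* under equal column totals, and 1 was called. *Slc25a21*, which carries 2-oxoadipate from lysine and tryptophan breakdown (chr12:56712634-57197472, minus strand), went from 6.18 (262 reads) to 18.5 (611 reads). Its ratio was 2.99, with an interval of 2.58 to 3.46, the highest of the family. It overlaps *Pax9* on the other strand, and 3.59% of its transcript words are shared. *Slc25a11*, the oxoglutarate–malate exchanger, went from 81.1 to 140.3, a ratio of 1.73 with an interval of 1.66 to 1.81. *Slc25a10*, the dicarboxylate carrier, went from 316 to 366, a ratio of 1.16 with an interval of 1.13 to 1.19. It shares 6.70% of its transcript words with *Gm11788*, which it overlaps on the other strand. *Slc25a1*, the citrate carrier, had a ratio of 1.27. Per kilobase, the ratio of *Slc25a10* to *Slc25a11* was 3.29 in the wild type and 2.21 in the transgenic library, a quotient of 0.671 with an interval of 0.637 to 0.706. With the median length of coding transcripts the ratios were 1.48 and 0.994, so which carrier of the pair had the higher level in the transgenic library depends on the length used. For *Slc25a11* that median is 770 bases, against 1711 for the longest transcript, and whether the short transcripts are complete was not checked.

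Enzymes on either side of *Slc25a21* were set beside it in a list made after its value was seen. All 5 had ratios above 1, and 3 were called higher, beside 7.35% of all genes compared. *Aadat*, which makes 2-oxoadipate, had a ratio of 3.94, *Dhtkd1*, of the 2-oxoadipate dehydrogenase complex, 2.81, and *Gcdh*, the next step, 2.04.

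Of the 7 amino acid carriers compared, 6 had ratios above 1, of which *Slc25a44* did not under equal column totals, and the median ratio was 1.51. *Slc25a13* (citrin), the aspartate–glutamate carrier that is the main form in liver, went from 88.5 (3751 reads) to 150.4 (4982 reads), a ratio of 1.70 with an interval of 1.63 to 1.77. *Slc25a12* (aralar), the form of brain and muscle, went from 51.4 to 65.6, a ratio of 1.28 with an interval of 1.20 to 1.35. Per kilobase, the ratio of *Slc25a12* to *Slc25a13* was 0.286 in the wild type and 0.214 in the transgenic library, a quotient of 0.750 with an interval of 0.697 to 0.808. With *Slc25a11* these carriers complete the malate–aspartate shuttle, whose 4 enzymes had ratios from 1.01 (*Got1*) to 2.19 (*Mdh1*, the 1 called).

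*Slc25a15*, the ornithine carrier of the urea cycle, went from 120.1 (5090 reads) to 194.9 (6455 reads), a ratio of 1.62 with an interval of 1.56 to 1.68. Its relative *Slc25a2* had too few reads to set a quotient, whose interval ran from 0.341 to 7.99. *Slc25a38*, a glycine carrier needed for heme synthesis, had a ratio of 1.55. *Slc25a29*, a carrier of basic amino acids, had 1.51 on 102 and 120 reads. *Slc25a44*, a carrier of branched-chain amino acids, had 1.14. *Slc25a22*, a glutamate carrier, stood apart from these: it went from 42.3 (1793 reads) to 22.0 (729 reads), a ratio of 0.521 with an interval of 0.477 to 0.568, just outside the threshold for a call.

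Enzymes that use the same metabolites were read beside these carriers. Of 7 enzymes of ornithine and arginine metabolism compared, 3 were called higher, with ratios of 5.05 (*Ass1*), 4.06 (*Asl*) and 16.2 (*Gatm*). The other calls were lower, 11.5-fold for the mitochondrial arginase *Arg2* and 2.16-fold for *Aldh18a1*. Of 11 genes of branched-chain amino acid breakdown, 8 were called higher, with a median ratio of 2.21, whereas their carrier *Slc25a44* was at 1.14. Of all genes compared, 7.35% were called higher and 11.0% lower.

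The acylcarnitine carrier and the choline carrier lay on opposite sides of 1. *Slc25a20*, which exchanges acylcarnitines for carnitine and so feeds long-chain fatty acids into oxidation, went from 86.0 (3644 reads) to 52.7 (1745 reads), a ratio of 0.613 with an interval of 0.579 to 0.649. *Slc25a48*, which imports choline (chr13:56437960-56472367, plus strand), went from 8.11 (344 reads) to 17.0 (564 reads), a ratio of 2.10 with an interval of 1.83 to 2.41. The lower end of that interval lies under the threshold of 2. Among 8 genes of the carnitine system compared, *Aldh9a1* was called higher (2.30) and *Cpt1c* lower (0.084), while *Cpt1a* went from 479.5 to 480.1 and *Cpt2* had a ratio of 1.06. In a list of 5 choline oxidation enzymes, also made after the value of *Slc25a48* was seen, 3 were called higher, *Bhmt* (4.17), *Dmgdh* (2.72) and *Sardh* (2.49).

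**Figure D3:**
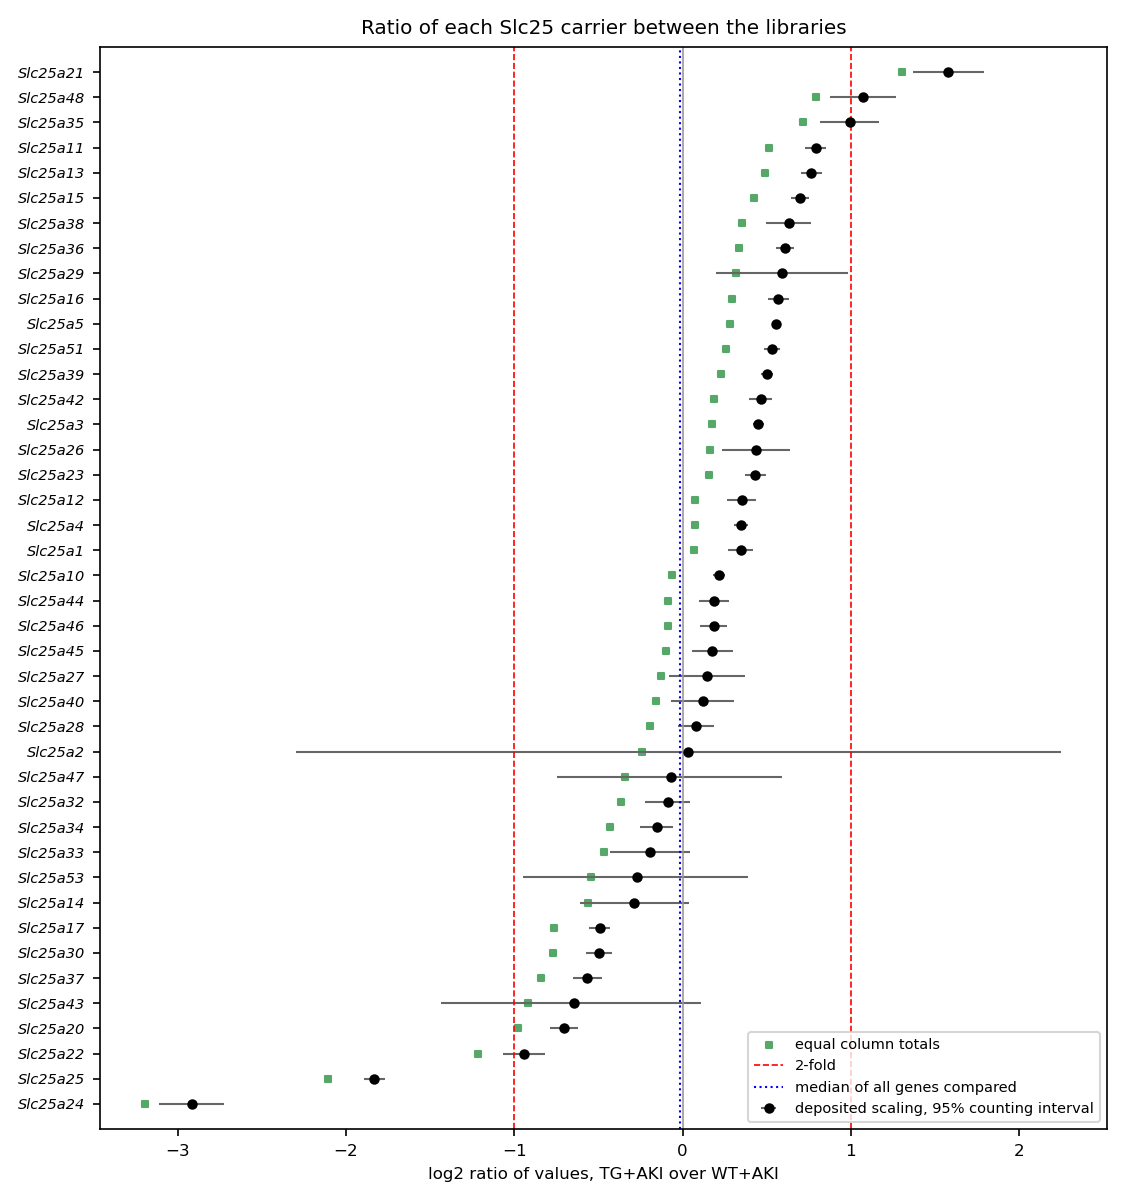
The log2 ratio of 42 of the 43 listed members, TG+AKI over WT+AKI, in order of size, with 95% counting intervals under the deposited scaling (circles with bars) and the value under equal column totals (squares); dashed lines mark 2-fold and the dotted line the median of all genes. *Slc25a24* and *Slc25a25* lie left of the 2-fold line under both scalings, and *Slc25a48* crosses back over it under equal column totals.

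Cofactor and nucleotide carriers had a median ratio of 1.38 over 9 members, and none was called. *Slc25a36*, a pyrimidine nucleotide carrier, went from 123.9 (5253 reads) to 189 (6252 reads), a ratio of 1.52 with an interval of 1.47 to 1.58. *Slc25a33*, the other pyrimidine nucleotide carrier, went from 8.66 (367 reads) to 7.58 (251 reads), a ratio of 0.876 whose interval, 0.743 to 1.03, included 1. Their quotient was 0.575, with an interval of 0.485 to 0.680. Both are uncertain to a degree, as 10.2% of the words of *Slc25a33* and 7.88% of those of *Slc25a36* occur in other genes.

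*Slc25a16*, linked to coenzyme A, had a ratio of 1.48, and *Slc25a42*, which imports coenzyme A, had 1.38. *Slc25a51*, the NAD carrier of mitochondria, went from 147.6 to 213, a ratio of 1.45. *Slc25a26*, the S-adenosylmethionine carrier, had a ratio of 1.36 on 392 and 415 reads. *Slc25a32*, linked to folate and flavin import, had 0.941, with an interval that included 1. *Slc25a17* is the member of peroxisomes, where it exchanges coenzyme A and nucleotides, and it went from 139 (5901 reads) to 99.0 (3278 reads). Its ratio was 0.711, with an interval of 0.681 to 0.742, the lowest of the 9. Of 9 mitochondrial folate genes, *Shmt2* was called higher (2.13) and *Mthfd1l* lower (0.281).

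The iron carriers differed from each other. *Slc25a37* (mitoferrin 1), 4.86% of whose transcript words occur in other genes and which supplies iron for heme in red cell precursors, went from 71.8 (3044 reads) to 48.5 (1607 reads), a ratio of 0.676 with an interval of 0.636 to 0.718. *Slc25a28* (mitoferrin 2), the form of other tissues, had values of 35.9 (1521 reads) and 37.9 (1256 reads), a ratio of 1.06 whose interval, 0.980 to 1.14, included 1. Per kilobase, *Slc25a28* stood at 0.795 times *Slc25a37* in the wild type and 1.24 times in the transgenic library, a quotient of 1.56 with an interval of 1.42 to 1.72. With the median length of coding transcripts the ratios were 0.980 and 1.53. All 3 red cell markers compared had ratios above 1, and the summed value of the 6 listed went from 14.2 to 56.7, most of it *Slc4a1*, which collecting duct cells express as well. *Slc25a39*, which imports glutathione, went from 314 (13313 reads) to 445 (14729 reads), a ratio of 1.42 with an interval of 1.38 to 1.45. Its relative *Slc25a40* went from 12.3 (520 reads) to 13.3 (441 reads), with an interval, 0.954 to 1.23, that included 1. Per kilobase of the longest transcript, *Slc25a39* stood at 67.9 times *Slc25a40* in the wild type and 88.5 times in the transgenic library, a quotient of 1.30 with an interval of 1.14 to 1.49. These ratios were 90.8 and 118 with the median length of coding transcripts. None of 10 genes of mitochondrial iron–sulfur cluster and heme synthesis was called, and their median ratio was 1.42.

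**Figure D4:**
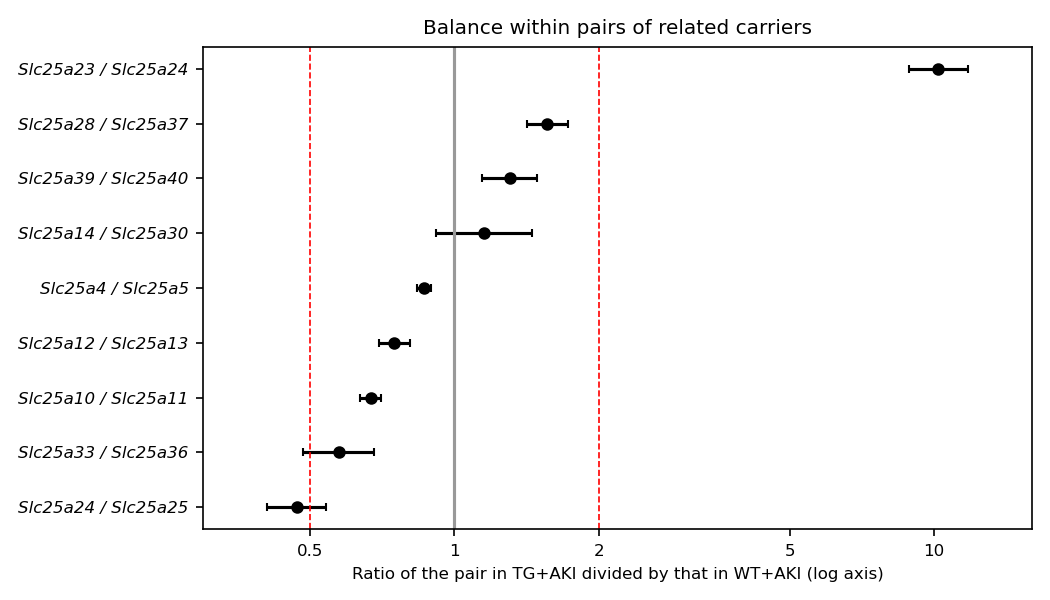
For 9 pairs of related carriers (the pair of *Slc25a15* and *Slc25a2*, with few reads, is left out), the ratio of the first to the second gene in TG+AKI divided by that in WT+AKI (log axis), with 95% exact intervals from the reads; dashed lines mark 0.5 and 2. The quotient of *Slc25a23* and *Slc25a24*, 10.2, lies far from the others, and the interval of *Slc25a14* and *Slc25a30* includes 1.

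Of the 10 pairs of related carriers with both genes listed, 8 had a quotient whose interval excluded 1, and 2 had a quotient of at least 2 or at most 0.5. Intervals of single genes excluded 1 in 75.0% of all genes compared, and no such share was computed for other pairs of genes. Both pairs beyond the threshold include *Slc25a24*. With a pseudocount of 1, the quotient of *Slc25a24* and *Slc25a25* went from 0.471 to 0.521, no longer beyond it. The pair of *Slc25a14* and *Slc25a30*, whose products resemble uncoupling proteins, had a quotient of 1.16 with an interval of 0.915 to 1.45. *Slc25a30*, known as the kidney mitochondrial carrier protein, went from 91.2 (3866 reads) to 64.7 (2144 reads), a ratio of 0.710 with an interval of 0.673 to 0.749. *Slc25a14* had 206 and 132 reads and a ratio of 0.820, with an interval that included 1, and *Slc25a27* had a ratio of 1.11 whose interval did so too. *Ucp2*, an uncoupling protein with the same fold but another symbol, went from 206 (8734 reads) to 51.3 (1700 reads) and was called lower at 4.01-fold. The other genes of that fold with a row, *Mtch1* and *Mtch2*, had ratios of 1.48 and 1.33.

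Among the 7 members of the outer membrane or of less known function, none was called. *Slc25a35* came nearest, with values of 10.4 (440 reads) and 20.7 (684 reads) and a ratio of 1.99, interval 1.76 to 2.25. It shares 19.8% of its transcript words with other genes, among them *Rangrf*, which it overlaps on the other strand, so its value is uncertain. *Slc25a46*, an outer membrane protein of mitochondrial dynamics, had a ratio of 1.14, *Slc25a45* 1.13 and *Slc25a34* 0.899. *Slc25a43*, *Slc25a47* and *Slc25a53* had 23 to 51 reads in either library, and the intervals of all 3 included 1.

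The members were set beside other families of transporters and of mitochondrial proteins. Of all genes compared, 7.35% were called higher and 11.0% lower, and of the Slc25 members compared 4.76% each way. Among 219 other Slc genes, the median ratio was 1.26, and 47 were called higher (21.5%) and 25 lower (11.4%). Of 91 nuclear respiratory chain genes, 1 was called higher and 1 lower (1.10% each), with a median ratio of 1.32. Of 78 mitochondrial ribosomal protein genes, 0 were called higher and 1 lower (1.28%), with a median ratio of 1.15. These are counts of genes in 2 libraries, and no test of the differences between the families was made. Among 19 other transporters of the mitochondrial membranes, such as the voltage-dependent anion channels and pyruvate carriers, *Sfxn2* (2.48) and *Sfxn5* (2.34) were called higher and none lower.

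**Figure D5:**
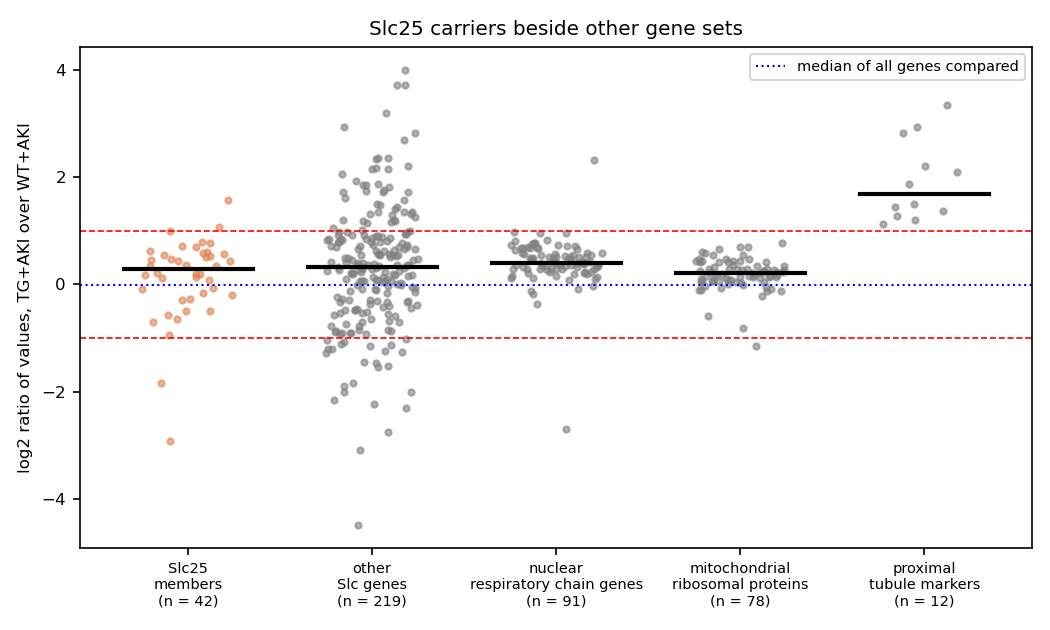
The log2 ratio, TG+AKI over WT+AKI, of each compared gene (points, spread sideways only for legibility) in the Slc25 family and in 4 other sets, with the median of each set as a bar; dashed lines mark 2-fold and the dotted line the median of all genes. The 12 proximal tubule markers all lie above the upper 2-fold line, while 38 of the 42 Slc25 members lie between the lines.

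Markers of other tissues that could hold Slc25 transcripts were also read. Thick ascending limb markers were called higher in 3 of 6, and their summed value went from 1963 to 4299. Collecting duct markers were called higher in 1 of 6, with summed values of 340.4 and 479.8. Of the neutrophil markers, 2 of 6 were listed, with summed values of 4.10 and 0.785, and of the male germ cell markers 2 of 8, with 0.967 and 0.272. Of the 6 hepatocyte markers, 3 of the 5 compared were called higher, with summed values of 225 and 1557, of which *Cyp2e1* made 129.9 and 1422. Also called were *Alb*, with a ratio of 10.3 on 34 and 274 reads, and *Ttr*, with 3.31. Whether the *Cyp2e1* transcripts came from hepatocytes was not tested. *Apoa2* had a ratio of 1.63, and *Serpina1a* had 0.696, with an interval of 0.654 to 0.740. *Apoa1*, with 42 and 33 reads, was not compared. Of the 6 fat markers and the 6 skeletal muscle markers, 0 were listed. The part of these cells in the values of the carriers was not tested.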

How the data were processed

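Kidney mRNA was sequenced in 2 libraries, 1 per group, the groups taken from the library names. Per the study's methods, TruSeq stranded mRNA libraries were read at about 100 bases (NovaSeq), aligned with STAR 2.7.3a, counted with HTSeq and normalized with DESeq2. The submitters' processing notes also list edgeR, Cufflinks 2.2.1, FastQC and mm10. The annotation and the strand setting of the counting were not given in the sources used here.

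The authors deposited 1 normalized signal value per gene and library. Each value was a whole multiple of its column's smallest value (tolerance 0.01, 100% of values), so whole reads were recovered. Column sums were 909104 (WT+AKI) and 1099984 (TG+AKI). edgeR 4.0.16 TMM factors on these reads, 1.10 and 0.909, matched the deposited scaling, whereas DESeq2 1.42.0 size factors were 1.14 and 0.879. At the filter value of 1 lie 42 reads (WT+AKI) and 33 reads (TG+AKI).

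Ratios, intervals and pair quotients (exact conditional odds ratio) were computed in Python 3.11.15 with scipy 1.17.1. No p-value was computed between conditions. A two-sided exact binomial test with Benjamini-Hochberg adjustment compared the 2 libraries only and served as an added requirement for a call. Simulated data were used to test the procedure. Lengths and shared 100-base words came from GENCODE M21, coordinates and promoters from RefSeq GRCm38.p6, which held 19780 (99.8%) of the listed IDs.

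The family and the gene lists were chosen with earlier results of these data known, while membership of the family followed the gene symbol alone. Named with full values were the members called, the 5 highest per kilobase and the members of pairs; other members were named within their role group, called genes within 8 pathway lists, and the most abundant genes within 10 marker lists. Genes named outside this rule were *Inmt*, *Lcn2*, *Havcr1*, *Cpt1a*, *Cpt2*, *Got1*, *Mtch1*, *Mtch2*, the genes of the closing observation and 2 lists made after values were seen. So were the markers *Csf1r*, *Mrc1*, *Alb*, *Ttr*, *Apoa1*, *Apoa2* and *Serpina1a*. The values of 1 member are not reported here and are left out of the plots by gene, while counts and medians include it. Alternatives were other scalings, filters, folds, a pseudocount of 1 and the binomial requirement.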

Additional observations from a re-analysis of the deposited data

How the results depend on the processing

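Under scaling by DESeq2 size factors, scaling to a median ratio of 1 and the added binomial requirement, the members called above were called in the same direction, and DESeq2 size factors added *Slc25a35* as higher. With equal column totals, 1 member was called higher, 726 of all genes were called higher, and the median log2 ratio of the members was 0.0047. Higher calls were then 23.4% of all calls, against 40.1% as deposited, and 8 listed members above 1 as deposited lay below it (*Slc25a2*, *Slc25a10*, *Slc25a27*, *Slc25a28*, *Slc25a40*, *Slc25a44*, *Slc25a45* and *Slc25a46*). With a pseudocount of 1, 1 member was called higher, *Slc25a21*. At 1.5-fold, 10 members were higher and 5 lower, beside 2349 and 2927 of all genes. Without a filter 1821 of all genes were called higher and 2489 lower, and with a filter of 10 these counts were 629 and 790, while the same 4 members were called. Quotients of pairs kept their side of 1 with a pseudocount, but that of *Slc25a24* and *Slc25a25* was then 0.521 and no longer at most 0.5. Use of the median length of coding transcripts was chosen after seeing the data. It counts every transcript annotated as coding, and whether these are complete was not checked. No paired analysis was possible because each group had 1 library, and for the same reason no library could be left out. Members under about 50 reads, such as *Slc25a43*, had intervals too wide to show a difference.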

Other observations

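Of the 19 listed transporters of the mitochondrial membranes outside the family, 15 had ratios above 1 and 4 below. Those named here were picked after their values were seen. The pyruvate carrier genes *Mpc1* and *Mpc2* had ratios of 1.79 and 1.65, with intervals of 1.74 to 1.84 and 1.59 to 1.71. *Vdac1*, an outer membrane channel, went from 424 to 594, a ratio of 1.40. *Mcu*, the pore of the calcium uniporter, had a ratio of 0.852 with an interval of 0.781 to 0.928, whereas its regulator *Micu2* had a ratio of 1.30. *Tspo*, an outer membrane protein that binds cholesterol, had a ratio of 0.694 with an interval of 0.657 to 0.733. None of the genes named in this paragraph was called, and the differences between them were not tested.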
